A study of Mus musculus with 2 samples.

Results

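The genes described are those that couple TAM receptors to the uptake of dying cells: the ligands Gas6 and Pros1, the receptors Axl and Mertk, and the bridging protein Mfge8. They were chosen by name, as the rows of the feature table whose symbol is 1 of these 5, and all 5 were found among 27998 features. Their transcripts were counted in single immune cells sorted as live and CD45+ from B16F10 tumors, a mouse melanoma line grown under the skin of C57BL/6 mice for 14 days. Hosts carried loxP-flanked Usp18 alleles (Usp18f/f, the control) or the same alleles with LysM-Cre, which places Cre recombinase in the Lyz2 locus of myeloid cells and was meant to delete Usp18 there. Usp18 is a protease that removes the interferon-induced modifier ISG15 and dampens type I interferon receptor signalling. Each group was 1 library pooled from 4 tumors, so no test between the groups was possible. Every difference given below lies between 2 pools, and all intervals are 95% intervals that cover counting error only.

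Cells that die by apoptosis expose phosphatidylserine on their surface. GAS6 and protein S (the product of Pros1) are vitamin K-dependent proteins that bind this lipid with one end and a TAM receptor (TYRO3, AXL or MERTK) with the other. MERTK drives the engulfment of apoptotic cells by resting and tolerant macrophages, AXL is induced by interferon and inflammatory signals, and both restrain cytokine production. GAS6 binds all 3 TAM receptors, protein S binds TYRO3 and MERTK, and MFG-E8 instead links phosphatidylserine to integrins of the alpha-v family.

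Genes and their promoters came from the mouse build GRCm38. Gas6 (ENSMUSG00000031451) lies at chr8:13465374-13494490 on the minus strand and overlaps Tmem255b on the plus strand. Pros1 (ENSMUSG00000022912) lies at chr16:62854307-62929346 on the plus strand. Axl (ENSMUSG00000002602) lies at chr7:25757273-25788705 on the minus strand. Mertk (ENSMUSG00000014361) lies at chr2:128698956-128802894 on the plus strand and overlaps Gm14011 on the minus strand and Gm23172 on the plus strand. Mfge8 (ENSMUSG00000030605) lies at chr7:79133768-79149060 on the minus strand.

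The promoters of Gas6, Axl and Mertk are shown because the macrophage-borne ligand and the receptors carry the main results below. Each runs 5′ to 3′ on the strand of its gene from 250 bases before to 50 bases after the RefSeq start (GRCm38.p6), and capitals mark matches to the searched motifs on either strand. They lie at chr8:13494486-13494785 (Gas6, minus), chr7:25788684-25788983 (Axl, minus) and chr2:128698665-128698964 (Mertk, plus).
Gas6: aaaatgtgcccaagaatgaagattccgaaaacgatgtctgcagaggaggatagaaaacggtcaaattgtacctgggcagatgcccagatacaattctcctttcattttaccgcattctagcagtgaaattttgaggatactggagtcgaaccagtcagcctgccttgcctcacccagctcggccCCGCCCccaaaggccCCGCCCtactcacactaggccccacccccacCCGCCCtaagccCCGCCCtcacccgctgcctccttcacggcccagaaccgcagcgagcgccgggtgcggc
Axl: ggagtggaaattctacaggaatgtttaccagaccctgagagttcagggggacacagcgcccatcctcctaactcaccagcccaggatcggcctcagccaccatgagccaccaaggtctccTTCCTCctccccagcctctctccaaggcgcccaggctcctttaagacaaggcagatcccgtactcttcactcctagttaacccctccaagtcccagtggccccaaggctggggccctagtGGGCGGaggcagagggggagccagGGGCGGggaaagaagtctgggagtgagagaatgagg
Mertk: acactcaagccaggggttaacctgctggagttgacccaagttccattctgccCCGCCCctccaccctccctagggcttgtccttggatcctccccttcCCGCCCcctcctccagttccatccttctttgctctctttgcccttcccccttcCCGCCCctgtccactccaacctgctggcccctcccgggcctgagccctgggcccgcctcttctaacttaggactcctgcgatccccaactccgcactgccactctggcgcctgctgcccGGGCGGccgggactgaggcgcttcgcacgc
The GC box GGGCGG occurred 4 times in the Gas6 window, 5 times in that of Pros1, 2 times in that of Axl, and 4 times each in those of Mertk and Mfge8. It occurred in 35.7% of all 32851 RefSeq mouse promoter windows of this length. The ETS core GAGGAA, the kind of site that PU.1 binds, occurred 1 time in the Axl window and 1 time in the Mfge8 window, and in 28.3% of all windows. Neither the interferon-response core (GAAA, any 2 bases, GAAA, in 3.44% of all windows) nor TATAAA (in 13.6%) occurred in any of the 5 windows. These are letter matches only, and a missing match says nothing of sites outside the window.

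The control library held 7754 barcodes with 43412346 unique molecular identifiers (UMIs, each counting 1 captured transcript), and the library with LysM-Cre held 6063 barcodes with 48167632 UMIs. After filtering, 6654 and 5460 cells were kept, and 86.8% and 87.9% of them were placed in a class by marker genes. Class names below mean cells gated on those markers. Usp18 went against its label: in macrophages it was at 17.4 CPM (UMIs of the gene in each 1e+06 UMIs of the class) in the control and 53.2 CPM in the library with LysM-Cre. Lyz2, into which Cre is inserted, went with the label, at 7759 and 12 CPM. Usp18 is also on the list of interferon-stimulated genes counted below, and the exons to be deleted are not given in the sources used here. Whether the counted transcript ends report the deletion was not tested. The second library is therefore called the library labelled knockout, and every direction below is drawn under that label. Of the cells whose Xist or Y-linked UMIs gave a sex, 35.7% were Xist cells in the control and 85.4% in the library labelled knockout, so the group and the mix of male and female cells cannot be told apart in the pooled values. Isg15, an interferon-stimulated gene, was 5.18 times as high in the macrophages of the library labelled knockout, 15.4 times in its monocytes and 7.69 times in its dendritic cells. The monocyte marker Ly6c2, itself interferon-inducible and part of the gate, was 4.96, 4.10 and 5.59 times as high in the same classes.

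The macrophage gate held 765 cells (median 9073 UMIs) in the control and 1161 (median 9592) in the library labelled knockout. The monocyte gate held 705 and 1102 cells (5584 and 5305 UMIs), and the dendritic cells (cDC1, cDC2 and migratory cells summed) held 573 and 564 (8114 and 8838 UMIs). Macrophage markers, among them the complement genes C1qa, C1qb and C1qc, summed to 20801 and 21464 CPM in the macrophage gate with 11 of 11 detected, against 3370 and 3369 CPM in monocytes and 690 and 892 CPM in dendritic cells. No barcode sequence shared by both libraries fell in these 3 classes, of 8 shared in all.

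Gas6, the ligand of all TAM receptors, was a macrophage transcript in both libraries. Its level in macrophages was 162 CPM (exact Poisson interval 153 to 171, 1256 UMIs) in the control and 155 CPM (148 to 162, 2041 UMIs) in the library labelled knockout. Macrophages held 98.2% (exact binomial interval 97.3 to 98.9) and 96.1% (95.2 to 96.9) of all Gas6 UMIs in kept cells, while they were 11.5% and 21.3% of those cells. The cells were sorted as CD45+, no kept cell was gated as a fibroblast, and endothelial cells were 0.015% and 0.11% of kept cells. The source shares of all genes here thus describe the sorted cells, and sources removed by the sort could not be seen. The next class in the control was migratory dendritic cells at 3.45 CPM, from 3 UMIs in 1 cell. The next in the other library, among classes of at least 50 cells, was plasmacytoid dendritic cells at 17.5 CPM (7.55 to 34.4), where 7 of 8 UMIs came from 1 cell. The macrophage markers of that gate summed to 147 CPM in the control and 1886 CPM in the library labelled knockout, and their part in the Gas6 value was not tested. Monocytes were at 0.497 CPM (2 UMIs) and 1.64 CPM (10 UMIs). In no other class of at least 50 cells did the interval reach that of macrophages. The library labelled knockout had only 28 neutrophils, whose 3 Gas6 UMIs gave 52.0 CPM with a wide interval (10.7 to 152).

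Gas6 was unevenly spread among macrophages. A Gas6 UMI was found in 42.0% of macrophages in the control and 39.1% in the library labelled knockout, against 0.141% and 0 of 438 B cells, which allows a share of cells with a UMI of up to 0.685%. B cells were shallower, at medians of 1500 and 1764 UMIs, and after thinning every cell to 1000 UMIs the macrophage shares were 11.9% and 10.2% and the B cell shares 0.146% and 0. Positive macrophages held 3.91 and 4.5 UMIs on average and up to 20 and 28. The tenth of macrophages richest in Gas6 held 55.3% and 58.0% of the gene's macrophage UMIs, so most transcripts came from a minority of cells in both libraries. Removing cells above 5% mitochondrial UMIs kept 369 and 770 macrophages and brought Gas6 to 65.9 CPM (57.7 to 74.9) and 99 CPM (92.1 to 106). The macrophages left out thus carried more Gas6 on average than those that stayed. The median mitochondrial share of macrophages was 5.06% and 4.29%.

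By clusters, computed without the 5 genes, Gas6 was higher in macrophage clusters than in monocyte-like ones. The cluster led by C1qa and C1qc (cluster 4) was at 196 CPM (184 to 209) and 195 CPM (186 to 204), and the cycling cluster of the same kind (cluster 21, led by histone genes) at 123 and 99.2 CPM. The Arg1 and Ppbp cluster of monocyte-like cells (cluster 0) was at 4.18 and 5.49 CPM, and the Chil3 and Hp cluster (cluster 1) at 0 UMIs and 1.83 CPM. Cluster 0 also held 15.6% and 15.1% of the macrophage-gated cells. These were at 12.4 and 12.5 CPM of Gas6, against 202 and 201 CPM in the macrophage-gated cells of cluster 4. Over 21 class and library profiles, the genes whose levels most resembled that of Gas6 were Npl (Pearson r = 0.97), Fcrls (0.965), Pdgfc (0.957), Ms4a14 (0.947) and Igf1 (0.944), out of 11183 genes compared. These profiles share libraries and depth, and the coefficients are descriptions.

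Pros1, which encodes protein S, had several sources. In the control its level was 27.9 CPM (22.9 to 33.5) in monocytes, 25.6 CPM in cDC2, 23.9 CPM (20.6 to 27.6) in macrophages and 15.3 CPM in melanoma cells that passed the sort. The library labelled knockout had 25.0 CPM (22.4 to 27.9) in macrophages, 20.1 CPM in cDC2, 18.7 CPM (15.5 to 22.5) in monocytes and 16.3 CPM in melanoma cells. The intervals of the first 3 classes overlapped with their neighbours in the control, and those of all 4 did in the library labelled knockout, so the first class did not stand apart from the next. Macrophages held 32.4% and 46.1% of Pros1 UMIs, monocytes 19.5% and 15.9%, dendritic cells 13.4% and 9.08%, and melanoma cells 20.9% and 22.2%. In melanoma-gated cells the list of macrophage markers summed to 2578 and 2888 CPM, while Gas6 was at 0.382 and 0.613 CPM. The part of macrophage transcripts in their Pros1 was not tested. The profiles nearest to Pros1 were those of Plxnb2 (r = 0.939), Cmtm3 (0.925), Tm2d2 (0.91), 3110082I17Rik (0.905) and Trappc1 (0.902).

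**Figure D1:**
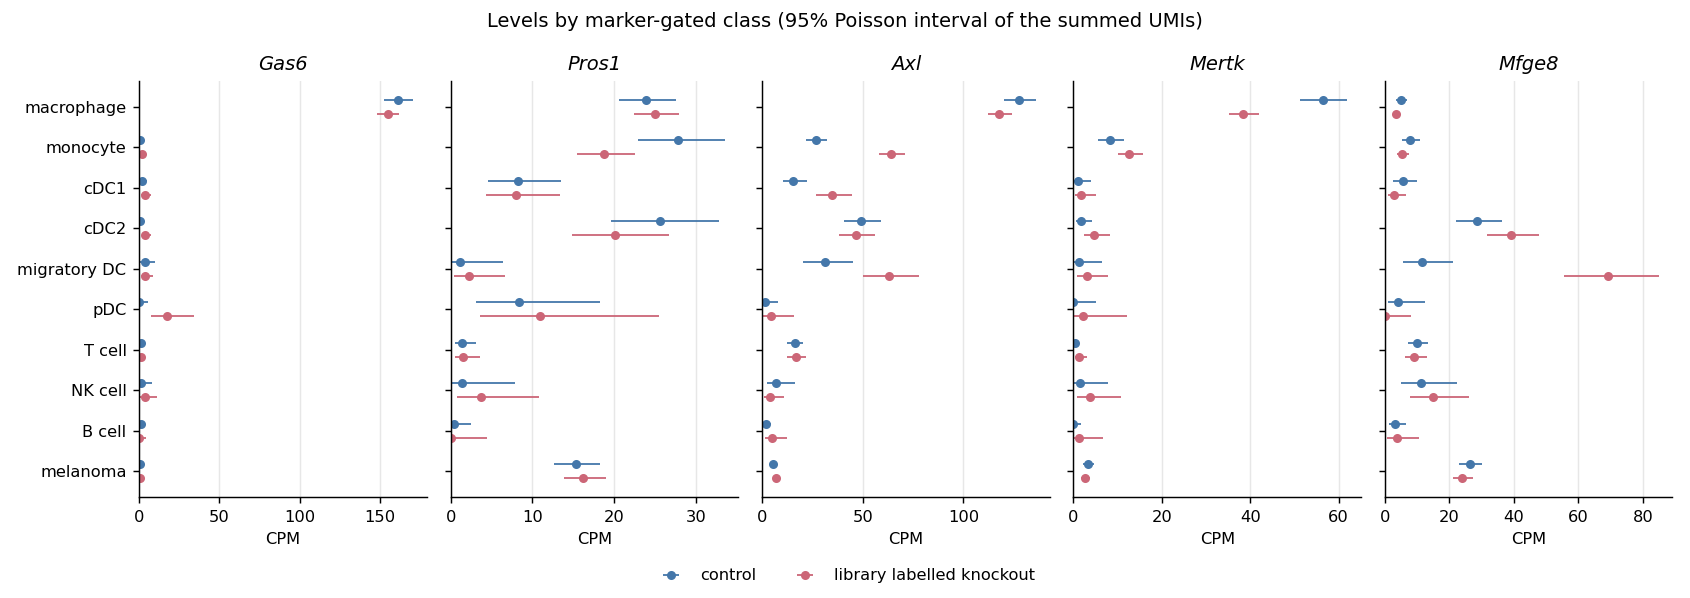
Level of each of the 5 genes in CPM (linear axis, 1 panel per gene) in 10 classes of cells gated on markers, in the control (blue) and in the library labelled knockout (red), with bars for the exact Poisson interval. Gas6 stands apart in macrophages (162 and 155 CPM), Pros1 is shared by macrophages, monocytes and cDC2, and Axl is at 26.9 and 64.3 CPM in monocytes.

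Within monocytes Pros1 was lower in the library labelled knockout. The 112 control UMIs and 114 UMIs of the library labelled knockout gave a level 1.49 times lower (1.13 to 1.95), a log2 ratio of -0.47 (-0.78 to -0.16, computed on CPM + 5 as are all log2 ratios below). The Chil3 and Hp cluster, with the markers of classical monocytes, lay on the same side at 41.9 and 27.4 CPM, while the Arg1 and Ppbp cluster was at 7.53 and 11.6 CPM. The ratio was -0.90 in Xist cells and 0.17 where cells held Y-linked UMIs, from 40 and 11 Pros1 UMIs. Macrophages showed no such difference in Pros1, with a log2 ratio of 0.05 (-0.16 to 0.27).

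Axl was highest in macrophages and present in most myeloid classes. Its macrophage level was 128 CPM (120 to 136) in the control and 118 CPM (112 to 124) in the library labelled knockout, and the intervals overlapped. In the control cDC2 followed at 49.1 CPM, migratory dendritic cells at 31.1 CPM, monocytes at 26.9 CPM and T cells at 16.1 CPM. The library labelled knockout had the order of monocytes at 64.3 CPM, migratory dendritic cells at 63.1 CPM, cDC2 at 46.6 CPM, cDC1 at 34.8 CPM and T cells at 16.7 CPM. Neighbours between macrophages and T cells overlapped in their intervals, while macrophages stood above and T cells below them in both libraries. Control cDC1, at 15.3 CPM, overlapped with T cells. An Axl UMI was found in 57.4% and 50.7% of macrophages, against 0.141% and 0.457% of B cells. After thinning to 1000 UMIs the macrophage shares were 10.7% and 12.1%, so the direction of that difference changed with depth.

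Mertk was more restricted to macrophages than Axl in its share of UMIs. Its level was 56.5 CPM (51.3 to 62.0) in control macrophages and 38.4 CPM (35.1 to 41.9) in those of the library labelled knockout, intervals that did not overlap. Monocytes were next, at 8.21 CPM (5.65 to 11.5) and 12.7 CPM (9.99 to 15.8), and all other classes were below 5 CPM. Macrophages held 83.3% and 74.2% of Mertk UMIs but 63.8% and 60.3% of Axl UMIs. Monocytes held 6.26% and 11.3% of Mertk and 6.94% and 15.2% of Axl, and dendritic cells 1.33% and 2.64% of Mertk and 11% and 9.89% of Axl. Positive macrophages held few receptor transcripts each, on average 2.26 and 2.64 for Axl and 1.55 and 1.48 for Mertk.

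The third TAM receptor, Tyro3, was almost absent from the immune classes. Macrophages had 1 Tyro3 UMI in the control and 5 in the library labelled knockout, and melanoma-gated cells were at 34.7 and 25.5 CPM, with 93.2% and 89.9% of the gene's UMIs. In melanoma cells Tyro3 was 1.36 times lower (1.14 to 1.62) in the library labelled knockout. The gates were unlike, with 154 cells (median 50320.5 UMIs) in the control and 376 (median 3180) in the library labelled knockout. The tenth of these cells richest in Tyro3 held 64.7% and 83.5% of its UMIs there.

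**Figure D2:**
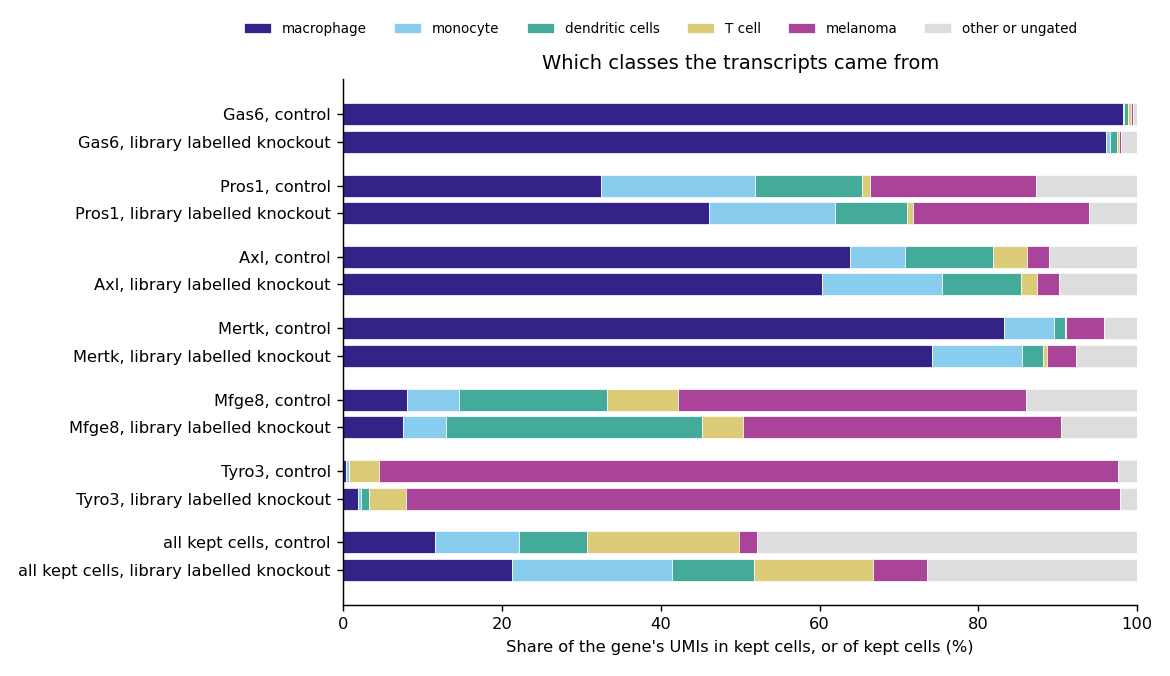
Share of the UMIs of each gene in kept cells (x axis, percent) that came from each class, in 1 bar per gene and library, with the share of all kept cells in the lowest 2 bars. Among these sorted cells macrophages hold 98.2% and 96.1% of Gas6, 83.3% and 74.2% of Mertk and 63.8% and 60.3% of Axl. Melanoma cells that passed the sort hold 93.2% and 89.9% of Tyro3.

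Among the sorted cells Mfge8, the bridge to integrins, came mostly from classes other than macrophages. Melanoma-gated cells held 43.9% and 40.1% of its UMIs, dendritic cells 18.6% and 32.3%, and macrophages 8.05% and 7.51%. In the control cDC2 and melanoma cells had overlapping levels at 28.5 and 26.4 CPM, followed by migratory dendritic cells at 11.5 CPM, NK cells at 11.3 CPM and T cells at 9.96 CPM, whose intervals overlapped. The library labelled knockout had migratory dendritic cells at 69.1 CPM, cDC2 at 39.0 CPM and melanoma cells at 24.0 CPM. The first place of migratory cells there rested on 1 cell: without the richest cell of each subset they were at 29.8 CPM (21.2 to 40.8) and cDC2 at 35.4 CPM (28.3 to 43.9). Macrophages were at 4.89 CPM (38 UMIs) and 3.34 CPM (44 UMIs) and monocytes at 7.71 and 5.26 CPM. Its nearest profiles were less alike than those of the other genes: Nr4a3 and Tuba1a (both r = 0.766), Eva1b (0.752), Tmem120b (0.728) and Gstt3 (0.727).

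The receptor profiles were also compared with all genes. Axl was most like Clta (r = 0.913), Tmem106a (0.893), Mdfic (0.866), Ccdc109b (0.859) and Pparg (0.856). Mertk was most like Kcnk13 (0.946), Stab1 (0.941), Sepp1 (0.94), Fblim1 (0.935) and Gdf3 (0.934), and Stab1 is itself a phosphatidylserine receptor. Among the 5 genes, Gas6 and Mertk had the most similar profiles (r = 0.849), then Axl and Mertk (0.712), Pros1 and Mertk (0.609) and Gas6 and Axl (0.584). Mfge8 followed neither Gas6 (-0.273) nor Mertk (-0.136). Each coefficient is over the same 21 profiles.

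Ligand and receptor UMIs were found in the same cell more often in macrophages than in monocytes. Each kind of UMI was also detected more often in macrophages on its own. Whether they shared a cell more often than these single rates would give was not tested. In macrophages thinned to 5000 UMIs (651 and 856 cells), 55.0% and 49.6% had a UMI of Axl or Mertk, 39.2% and 40.4% one of Gas6 or Pros1, and 24.1% and 19.7% both a ligand and a receptor. Axl was detected without Mertk in 30% and 32.5% of them, Mertk without Axl in 13.4% and 9.11%, and both receptors in 11.7% and 8.06%. Control macrophages with a Mertk UMI had a Gas6 UMI in 42.3% (34.6 to 50.3) of cases, against 31.4% (27.3 to 35.7) of those without, intervals that overlapped. These shares were 36.7% and 32.7% in the library labelled knockout. Macrophages with and without an Axl UMI had a Gas6 UMI in 36.5% and 32.4% of cases in the control and in 30.5% and 35.4% in the library labelled knockout, so the direction turned, and the intervals overlapped in each library. In thinned monocytes (467 and 635 cells), a receptor UMI was found in 11.8% (9 to 15.1) and 21.6% (18.4 to 25.0), a ligand UMI in 13.3% (10.3 to 16.7) and 9.13% (7.01 to 11.6), and both in 0.857% and 1.73%. The intervals of the receptor shares did not overlap between the libraries, and those of the ligand shares did.

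Between the libraries, none of the 5 genes differed by more than 2-fold in macrophages. There 0.706% of 11187 genes with at least 20 UMIs were past 2-fold in either direction (0.545% higher and 0.161% lower). This count and all later counts past 2-fold were made on CPM + 5. The 5 genes had a median log2 ratio of -0.11, against -0.02 for all genes tested. Mertk had the largest difference. It was 1.47 times lower (1.29 to 1.67) in the library labelled knockout, a log2 ratio of -0.50 (-0.67 to -0.34). Axl had a log2 ratio of -0.11 (-0.22 to -0.00), Gas6 -0.06 (-0.16 to 0.04) and Mfge8 -0.25 (-0.53 to 0.04). Gas6 was also at 0.55 where cells above 5% mitochondrial UMIs were left out, so its direction depended on that limit.

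Mertk in macrophages lay in the same direction in both sexes and in the main macrophage clusters. Xist cells were at 80.4 CPM in the control and 38.7 CPM in the library labelled knockout, a log2 ratio of -0.97, while those with Y-linked UMIs were at 47.3 and 34.6 CPM, a ratio of -0.40. The C1q cluster 4 was at 71.4 and 42.6 CPM, or 0.60 times the control (0.51 to 0.69), and the cycling cluster 21 at 30 CPM (23.5 to 37.6) and 20.7 CPM (15.9 to 26.3), whose intervals overlapped. The macrophage-gated cells of cluster 0 had overlapping intervals at 34.0 and 29.5 CPM. Of the gated macrophages of the library labelled knockout, 12.7% belonged to cluster 17, whose cells held few UMIs (median 797), and their Mertk level of 32.7 CPM rested on 5 UMIs. The share of macrophages with a Mertk UMI after thinning to 1000 UMIs was 6.84% and 4.34%, in the same direction.

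In monocytes Axl was the 1 of 4 genes tested that passed 2-fold, where 2.4% of 9874 genes did (2.09% higher and 0.314% lower). Its level went from 26.9 CPM (22.0 to 32.4, 108 UMIs) in the control to 64.3 CPM (58.1 to 71.0, 391 UMIs) in the library labelled knockout, 2.39 times as high (1.93 to 2.99). The share of monocytes with an Axl UMI was 9.22% and 19.9%, and 2.31% and 6.02% after thinning to 1000 UMIs. The log2 ratio of 1.12 (0.86 to 1.39) was 0.48 in Xist cells (44.7 and 64.5 CPM) and 1.46 among those with Y-linked UMIs (25.4 and 78.8 CPM). Mertk was 1.54 times as high (1.01 to 2.40) from 33 and 77 UMIs. The Mertk log2 ratio was 0.18 (-0.46 to 0.81) in Xist cells. It was -0.64 (-1.62 to 0.33) among those with Y-linked UMIs, from 12 and 1 UMIs. Gas6 had only 12 UMIs in all and was not tested.

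Axl in monocytes differed both within clusters and through 1 cluster led by the interferon-stimulated gene Rsad2. Monocyte-gated cells of cluster 0 were at 24.6 and 45.6 CPM and those of cluster 1 at 26.4 and 42.6 CPM. Cluster 16, led by Rsad2, held 5 cells in the control and 191 in the library labelled knockout. Its 108 monocyte-gated cells in the latter were at 186 CPM for Axl and 45.8 CPM for Mertk. Without cluster 16, cluster 17 and the unnamed cluster 19, a choice made after seeing the data, the log2 ratio in monocytes was 0.80 for Axl and 0.05 for Mertk, so the Mertk difference did not remain. Over all cells of the Adgre4 and Ace cluster (cluster 15), which has the markers of patrolling monocytes, Axl was at 34.7 CPM (24 UMIs) and 91.2 CPM (49 UMIs). Its monocyte-gated cells were at 27.1 CPM (6 UMIs) and 83.6 CPM (18 UMIs).

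**Figure D3:**
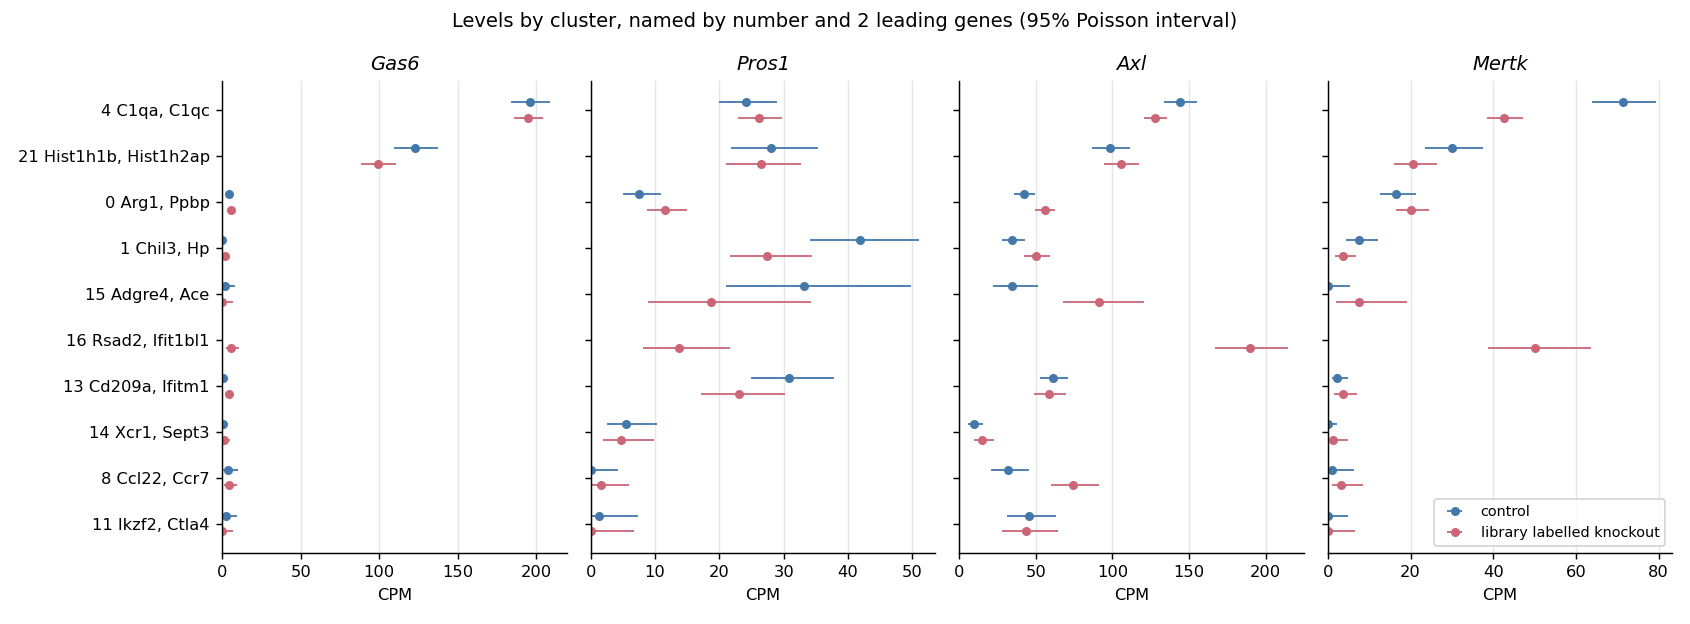
Levels of Gas6, Pros1, Axl and Mertk in CPM (linear axis) in 10 clusters of cells named by number and 2 leading genes, with exact Poisson intervals. The C1qa and C1qc cluster is highest for Gas6 (195 CPM in the library labelled knockout), and the Rsad2 cluster, shown for the library labelled knockout alone since the control has 5 cells there, is at 190 CPM for Axl.

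Cells were also split by whether they held an Isg15 UMI, a split chosen after seeing the data in which cells with the UMI can be the deeper ones. Control monocytes with an Isg15 UMI (125 cells) were at 66.2 CPM of Axl (49.4 to 86.8) and those without (580 cells) at 17.3 CPM (13.1 to 22.5). The 703 monocytes with the UMI in the library labelled knockout were at 79.3 CPM (70.9 to 88.3) and 399 without at 32.1 CPM (24.6 to 41.1). Within each library the intervals of the 2 sides did not overlap. Isg15 itself differed between the libraries, so the sides hold different shares of each and are compared only within a library. Dendritic cells showed the same order within each library, at 50.3 against 27.1 CPM and 67.0 against 19.4 CPM. Macrophages showed it in the control, at 147 against 120 CPM, and were level at 117 against 119 CPM in the library labelled knockout. Mertk in macrophages was at 54.0 CPM with the UMI against 57.5 CPM without in the control, and at 41.3 against 33.6 CPM in the library labelled knockout.

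**Figure D4:**
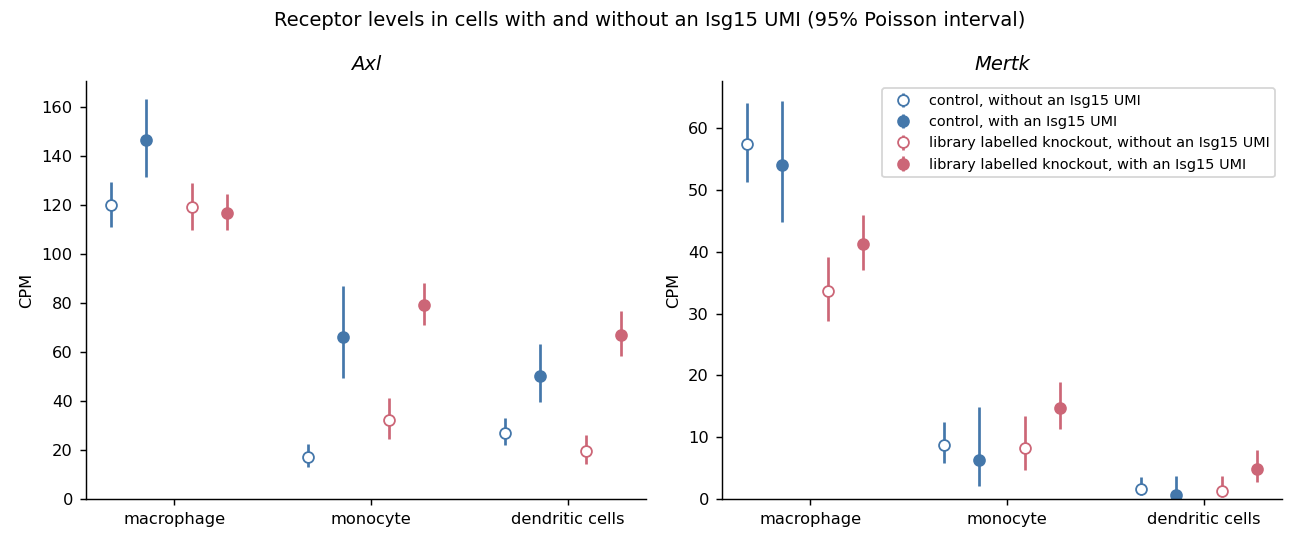
Axl (left) and Mertk (right) in CPM (linear axes) in cells with (filled) and without (open) an Isg15 UMI, by class and library, with exact Poisson intervals. Monocytes and dendritic cells with an Isg15 UMI have more Axl in each library (66.2 against 17.3 CPM in control monocytes), while macrophages of the library labelled knockout are at 117 and 119 CPM.

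In the pooled dendritic cells none of the 5 genes passed 2-fold, where 1.4% of 10734 genes did (1.29% higher and 0.102% lower). Axl was at 33.8 CPM (172 UMIs) and 46.8 CPM (255 UMIs), a log2 ratio of 0.42 (0.17 to 0.66). Xist cells gave 0.24 (-0.25 to 0.74) and those with Y-linked UMIs -0.61 (-1.32 to 0.10) from 97 and 11 UMIs. Both intervals include 0, so these counts cannot show a direction inside a sex. The second interval leaves out the pooled value of 0.42. Mertk, at 1.38 CPM (7 UMIs) and 3.30 CPM (18 UMIs), and Gas6, at 1.38 CPM (7 UMIs) and 3.67 CPM (20 UMIs), were near the floor of the assay. T cell markers in this gate summed to 42.9 CPM in the control and 267 CPM in the library labelled knockout, macrophage markers to 690 and 892 CPM, and their part in these values was not tested.

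The subsets of dendritic cells differed. The cDC1 cells, which take up dying tumor cells for cross-presentation, were at 15.3 CPM of Axl (28 UMIs) and 34.8 CPM (61 UMIs), 2.28 times as high (1.43 to 3.70). Within the Xcr1-led cDC1 cluster (cluster 14), Axl was at 9.70 CPM (16 UMIs) and 14.9 CPM (22 UMIs), 1.54 times as high with an interval of 0.771 to 3.13 that includes 1, so the difference in the gate came mostly from gated cells outside that cluster. Macrophage markers in the cDC1 gate summed to 456 and 657 CPM, monocyte markers to 1227 and 1884 CPM and T cell markers to 25.7 and 114 CPM, and their part in the Axl value was not tested. With the added 5 CPM the log2 ratio was 0.97, so 0 of 2 genes tested in cDC1 passed 2-fold, where 1.93% of 8799 genes did. cDC2 were level at 49.1 and 46.6 CPM, and 0 of 3 genes passed there, against 1.65% of 9445 genes. Migratory dendritic cells were at 31.1 CPM (27 UMIs) and 63.1 CPM (83 UMIs), 2.03 times as high (1.30 to 3.26). On CPM + 5 the log2 ratio was 0.92, so Axl did not pass 2-fold there. Within Xist cells the migratory levels were 74.7 and 70.2 CPM (8 and 65 UMIs), 0.94 times the control (0.45 to 2.27). Among those with Y-linked UMIs they were 16.6 and 14.9 CPM (9 and 2 UMIs), 0.90 times the control (0.095 to 4.34). Both intervals include 1 and the pooled value of 2.03, so these counts cannot show whether the migratory difference holds inside a sex.

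Mfge8 in dendritic cells was at 17.3 CPM (88 UMIs) and 34.7 CPM (189 UMIs), 2 times as high (1.55 to 2.61), and few cells set that value. In migratory dendritic cells Mfge8 was 1 of 2 genes tested past 2-fold, where 6.87% of 7491 genes were, at 11.5 CPM (10 UMIs) and 69.1 CPM (91 UMIs). A single cell held 52 of those 91 UMIs (57.1%) and the next held 19. Without the richest cell of each library, a choice made after seeing the data for this subset, the levels were 8.11 and 29.8 CPM (7 and 39 UMIs). For the dendritic cells together the log2 ratio of 0.83 (0.54 to 1.13) became 0.49 without that cell, 0.16 in Xist cells and 2.55 among those with Y-linked UMIs. The same cell is 1 of the latter and holds 52 of their 66 Mfge8 UMIs in the library labelled knockout, so that value is not separate from it. In the migratory gate the macrophage markers summed to 850 and 1255 CPM, the monocyte markers to 299 and 1088 CPM, the T cell markers to 76.0 and 630 CPM, and the median log2 ratio of all genes tested was 0.11. The part of these other transcripts in the Mfge8 value was not tested. In cDC2 Mfge8 was at 28.5 and 39.0 CPM, with overlapping intervals.

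**Figure D5:**
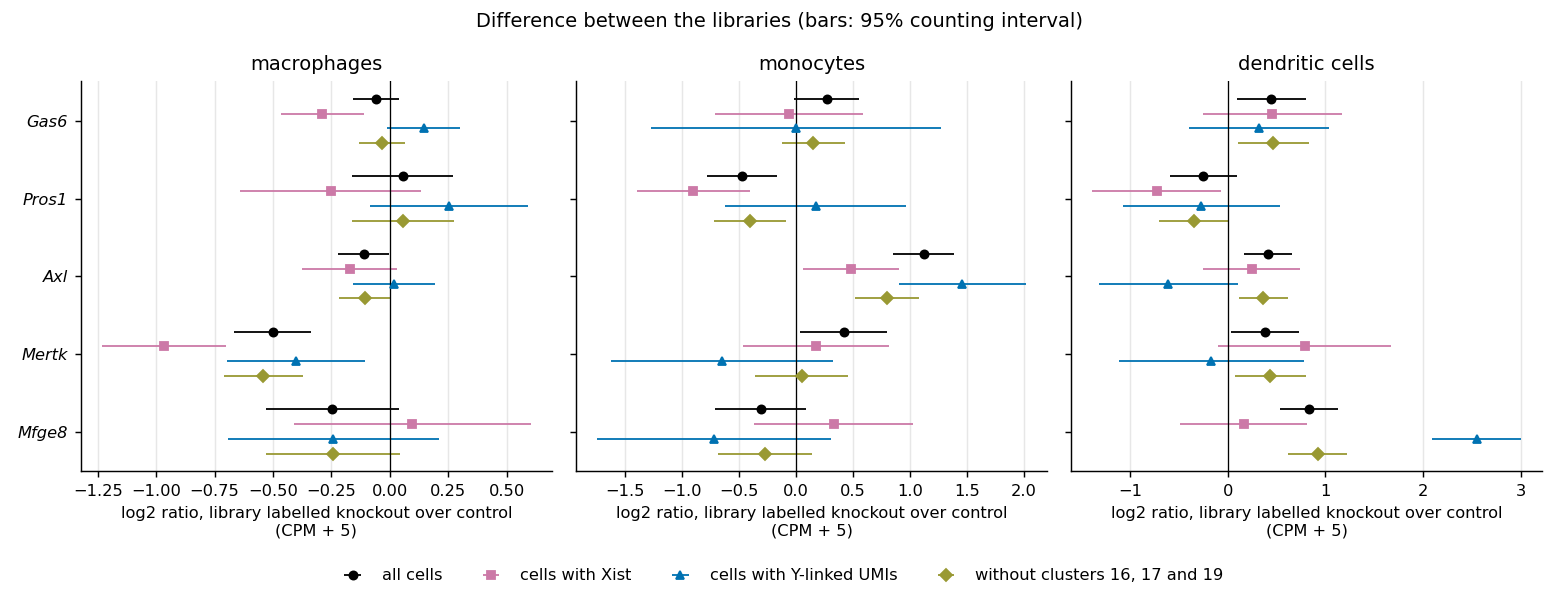
Log2 ratio of (CPM + 5), library labelled knockout over control, for the 5 genes in macrophages, monocytes and dendritic cells, with counting intervals, for all cells (black), for Xist cells (pink), for cells of Y-linked UMIs (blue) and without clusters 16, 17 and 19 (olive). Mertk in macrophages lies below 0 and Axl in monocytes above 0 in all 4 versions, while Gas6 in macrophages and Axl in dendritic cells change side between Xist cells and Y-linked ones.

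The other genes of the uptake pathway were followed with a list of 99 genes: further bridging molecules and receptors, engulfment machinery, corpse processing, find-me signals, phosphatidylserine exposure, do-not-eat-me signals, ligand maturation and signalling below the receptors. In macrophages 86 were tested and 0 were past 2-fold in either direction, against 0.706% of 11187 genes tested, a share near the background. Their median log2 ratio was -0.01, against -0.02 for all genes tested. The list shares C1qa, C1qb, C1qc, Mrc1 and Thbs1 with the macrophage and monocyte markers used for gating. Those nearest to a difference in macrophages were higher for Il10 (3.34 and 9.79 CPM, log2 ratio 0.83), Socs1 (7.46 and 16.2 CPM, 0.77) and Pecam1 (4.24 and 7.97 CPM, 0.49). The lowest were Cx3cr1, the receptor of the find-me signal fractalkine (380 and 195 CPM, -0.95), Cd24a (16.6 and 8.50 CPM, -0.68) and S1pr1 (19.9 and 11.4 CPM, -0.61). Of the interferon-stimulated list 16 of 26 genes were past 2-fold higher in macrophages and 0 lower, with a median of 1.26.

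Integrin and maturation genes around the 5 genes were also measured in macrophages. Itgb5, the beta chain of an MFG-E8 receptor, was at 176 and 118 CPM (log2 ratio -0.55, -0.65 to -0.45) and its partner Itgav at 94.9 and 81.8 CPM (-0.20). Vkorc1, which recycles the vitamin K that GAS6 and protein S need, was at 20.4 and 19.7 CPM (-0.04). Adam17 and Adam10, proteases that can shed TAM receptors, were at 168 and 142 CPM (-0.24) and at 103 and 91.8 CPM (-0.16). Stab1 was at 590 and 524 CPM (-0.17), Lrp1 at 483 and 474 CPM (-0.03), and Timd4 at 0 UMIs in macrophages of both libraries.

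In monocytes 7 of 85 pathway genes were past 2-fold higher and 1 lower, against 2.09% and 0.314% of all genes tested. Among the higher genes were the complement genes C1qa, C1qb and C1qc (30.8 and 69.1, 110 and 226, and 37.8 and 92.2 CPM), the mannose receptor Mrc1 (101 and 260 CPM), Socs1 (13.4 and 55.1 CPM) and Il10 (2.49 and 13.6 CPM). The lower gene was the scavenger receptor Cd36, at 218 and 90.3 CPM, a log2 ratio of -1.23. Cd24a (69.1 and 32.2 CPM, -0.99) and Lipa, a lysosomal lipase (123 and 70.9 CPM, -0.75), were also lower without passing 2-fold. Of the interferon-stimulated list 24 of 26 genes were past 2-fold higher in monocytes, with a median of 2.48, against -0.05 for all genes tested. C1q and Mrc1 are macrophage markers of the gate. The sum over all macrophage markers in monocytes was 3370 and 3369 CPM and so did not follow these genes. A level sum cannot show whether macrophage transcripts had a part in their values, which was not tested.

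In dendritic cells 2 of 87 pathway genes were past 2-fold higher and 0 lower, against 1.29% and 0.102% of all genes tested, a share near the background. They were Thbs1, which encodes the bridging molecule thrombospondin and is a monocyte marker of the gate (14.8 and 66.2 CPM), and Il10 (0 and 37 UMIs, 6.79 CPM in the library labelled knockout). Abcg1, a sterol exporter, was at 18.3 and 39.6 CPM (0.94). The lowest ratios were those of Cx3cr1 (50.3 and 33.6 CPM, -0.52), Cd36 (39.3 and 26.4 CPM, -0.50) and Itgb5 (10.4 and 6.05 CPM, -0.48). The interferon-stimulated list had 19 of 26 genes past 2-fold higher in dendritic cells, with a median of 1.42.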

How the data were processed

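Whole-number UMI counts for each barcode were deposited without normalization, and the submitters' processing notes name Cell Ranger 3.0.1 and mm10. Libraries were made with 10x 3′ v3 chemistry, per the labels' protocols, so 1 UMI stands for 1 transcript end. Whether the counting used strand is not given in the sources used here, so reads of Gas6 and Tmem255b, and of Mertk and Gm14011, may not be told apart. Mertk and Gm23172 lie on the same strand, so strand cannot separate their reads where they overlap. The feature table matched GENCODE M21 (GRCm38) for 27645 of 27998 genes (98.7%), which gave the gene positions.

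Barcodes under 200 detected genes or above 10% mitochondrial UMIs were left out. Scrublet scored doublets in scanpy 1.11.5 (Python 3.11.15), and the highest scores, 0.8% per 1000 barcodes, were removed (477 and 292). Each cell took the class with the highest marker score, if the score was at least 0.3, led the next class by 0.15 and rested on at least 3 detected markers; 260 and 325 cells lay within 0.1 of that limit. Clusters (Leiden, 24 in all) were computed on both libraries without the 5 genes, the interferon list, Usp18 and Lyz2, on 2000 variable genes and 30 principal components. Classes of at least 50 cells are described.

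UMIs were summed per class and library and given as CPM. Levels carry exact Poisson intervals, shares exact binomial (Clopper-Pearson) intervals, folds exact conditional binomial intervals, and log2 ratios of CPM + 5 delta intervals. With 1 library per group no p-value is given. Genes with at least 20 UMIs in a class entered the count past 2-fold, which was made on CPM + 5. The unthinned count of 0 for Gas6 in B cells is given with the limit that 3 counts set. Other UMI counts of 0 are given without a limit. The named genes were the 5 genes, Tyro3, in each of the 3 main classes the 3 highest and 3 lowest log2 ratios of the pathway list, and the 5 genes of most similar profile to each of the 5 among genes with at least 200 UMIs; all other named genes were chosen after their values were seen, except the checks of the label and of sex. The 5 genes, the lists and the markers were chosen with earlier results of these data known. 12 alternatives were planned and 3 added after seeing the data (a gate without Ly6c2 and Plac8, markers standardised within each library, and cells without clusters 16, 17 and 19). The scripts were tested on simulated data. 1 gene of the pathway list is not reported here by name.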

Additional observations from a re-analysis of the deposited data

Results flagged for a closer look

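Over all cells of each class the receptors differed in direction between classes, a contrast that was not tested because each group is 1 library. Axl had a log2 ratio of -0.11 in macrophages against 1.12 in monocytes, and of -0.11 in macrophages against 0.42 in dendritic cells. Within cells with Y-linked UMIs its ratio was 0.02 (-0.16 to 0.19) in macrophages, 1.46 in monocytes and -0.61 (-1.32 to 0.10) in dendritic cells. Macrophages and dendritic cells thus lay in the other order there, with overlapping intervals that both include 0. Mertk had a log2 ratio of -0.50 in macrophages against 0.42 in monocytes, and of -0.50 in macrophages against 0.38 in dendritic cells. Without clusters 16, 17 and 19 the Mertk ratio in monocytes was 0.05, and the dendritic cell value rested on 7 and 18 UMIs. Among cells with Y-linked UMIs the Mertk ratio was -0.40 in macrophages, -0.64 in monocytes and -0.17 in dendritic cells. It thus did not differ in direction there, though monocytes had 12 and 1 UMIs and dendritic cells 2 and 0. Xist cells gave -0.97, 0.18 (-0.46 to 0.81) and 0.79 (-0.10 to 1.67) in the same order.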

How the results depend on the processing

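No paired analysis was possible because each group has 1 library. Mertk in macrophages stayed below 0 in all 15 alternatives (-0.97 to -0.34) and Axl in monocytes above 0 in all 15 (0.48 to 1.46). Of 120 alternative values of the 8 main log2 ratios, 100 stayed within counting error, and those that did not are given here. In Xist cells the ratio was -0.29 for Gas6, -0.25 for Pros1, -0.97 for Mertk and 0.10 for Mfge8 in macrophages, 0.48 for Axl in monocytes and 0.16 for Mfge8 in dendritic cells. Among those with Y-linked UMIs it was 0.14 for Gas6 and 0.018 for Axl in macrophages, 1.46 for Axl, 0.17 for Pros1 and -0.64 for Mertk in monocytes, and -0.61 for Axl, 2.55 for Mfge8 (52 of 66 UMIs from 1 cell) and -0.17 for Mertk in dendritic cells. With a mitochondrial limit of 5%, macrophage Gas6 was at 0.55 and Pros1 at 0.29. As a mean of CPM over cells, macrophage Gas6 was at -0.21 and Axl at -0.23, and Axl in dendritic cells at 0.81. With markers standardised within each library, macrophage Gas6 was at 0.058. Axl in monocytes was 0.84 by clusters and 0.80 without clusters 16, 17 and 19. Mfge8 in dendritic cells was 0.49 without the richest cell. The cause of these shifts was not tested. The share of macrophages with an Axl UMI, library labelled knockout minus control, was 1.34 points at 1000 UMIs, -3.56 at 2000 and -6.65 unthinned. Low counts limit Mertk and Gas6 outside macrophages.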

Other observations

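Axl was also found in T cells. Those with a UMI of Foxp3, the defining transcription factor of regulatory T cells, were at 45.3 CPM of Axl (29.8 to 65.9, 27 UMIs in 123 cells) in the control and 32.3 CPM (19.5 to 50.5, 19 UMIs in 97 cells) in the library labelled knockout. T cells without a Foxp3 UMI were at 11.3 CPM (8.12 to 15.4) and 13.3 CPM (9.30 to 18.4). Axl was detected in 18.7% and 15.5% of the former and in 3.04% and 3.49% of the latter. The former had no Mertk UMI in either library and held 1 and 9 UMIs of the macrophage gene C1qa. The Axl intervals of T cells with and without Foxp3 did not overlap in either library. The Foxp3-led cluster of T cells (cluster 11, 183 and 134 cells) gave 45.3 and 43.3 CPM of Axl. This split was made after the data were seen.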
